A study of Mus musculus with 15 samples.

Results

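Red pulp macrophages are the iron-recycling phagocytes of the spleen, and 10 genes that mark them or encode the complement protein C1q were followed here: Spic, Vcam1, Timd4, Axl, C1qa, C1qb, C1qc, Cd5l, Cd163 and Mrc1. They were taken as every probe set whose annotated gene symbol is exactly one of these names, which gave 16 probe sets for the 10 genes, out of 34945 probe sets for 18193 genes. RNA came from mouse acute myeloid leukemia of the genotype NRASG12V/Mll-AF9, in which doxycycline turns the NRASG12V transgene off and leaves the Mll-AF9 fusion in place. Both groups carried this genotype and grew in SCID/Beige mice, which lack working T and B lymphocytes but keep their own macrophages, red cell precursors and stroma. Leukemia cells were injected into the tail vein, and at 20 days the white cell count of the blood exceeded 100000 per microlitre. RAS-OFF leukemias came from mice given doxycycline by injection and in the drinking water, with 2 arrays each at 48, 60, 72, 84 and 96 h (10 arrays). RAS-ON leukemias came from vehicle-treated mice at 0 h (5 arrays). The material is described as primary leukemia cells taken from leukemic spleens, with no sort named, and the ages of the mice are not given in the labels.

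Red pulp macrophages engulf old and dying red cells, break down their haem and return the iron to the blood. In mice, haem releases the Spic gene from the repressor Bach1, and Spic, an ETS-family transcription factor, is needed for these cells to form and for their high Vcam1. Timd4 and Axl are receptors for dying cells, Cd163 takes up haemoglobin, Mrc1 is the mannose receptor, and Cd5l is a secreted protein of tissue macrophages that limits their death. C1q, made largely by macrophages, is built from the chains encoded by C1qa, C1qb and C1qc and starts the classical complement pathway when it recognises antibody or dying cells.

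The C1q genes lie side by side on mouse chromosome 4 (GRCm38.p6), with C1qb at chr4:136880126-136886200, C1qc at chr4:136889801-136892936 and C1qa at chr4:136895916-136898844, a span of 18719 bases. The other members lie on chromosomes other than 4, with Timd4 at chr11:46810786-46844333, Spic at chr10:88675269-88683023, Vcam1 at chr3:116110020-116129688 and Cd5l at chr3:87357881-87371074. RefSeq promoter windows of 300 bases, which run from 250 bases before the start site to 50 after it, were matched for 8 of the 10 members. They were searched on both strands for TGCTGA, the half-site of the MAF family of transcription factors, for the full MAF elements TGCTGANNTCAGCA and TGCTGANTCAGCA, and for GAGGAA, the core bound by PU.1 and its ETS relatives, Spic among them. The motifs were chosen with these sequences in view, and both full elements contain the half-site. Of 32841 mouse promoters, 19.5% held the half-site, 28.3% the core, and 2 promoters (0.00609%) each of the full elements. The windows below are shown because their genes moved in the arrays and hold at least 1 of these motifs, written 5′ to 3′ in the direction of the gene with motif letters in capitals on either strand. They cover chr11:46810549-46810848 on the plus strand for Timd4, chr10:88682974-88683273 on the minus strand for Spic, chr3:87357631-87357930 on the plus strand for Cd5l, chr4:136886151-136886450 on the minus strand for C1qb and chr4:136892865-136893164 on the minus strand for C1qc.
Timd4: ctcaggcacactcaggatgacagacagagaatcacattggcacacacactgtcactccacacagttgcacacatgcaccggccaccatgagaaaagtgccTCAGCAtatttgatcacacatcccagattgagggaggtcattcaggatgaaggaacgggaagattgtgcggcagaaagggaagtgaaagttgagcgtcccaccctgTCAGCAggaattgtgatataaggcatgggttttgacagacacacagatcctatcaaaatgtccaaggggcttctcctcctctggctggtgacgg
Spic: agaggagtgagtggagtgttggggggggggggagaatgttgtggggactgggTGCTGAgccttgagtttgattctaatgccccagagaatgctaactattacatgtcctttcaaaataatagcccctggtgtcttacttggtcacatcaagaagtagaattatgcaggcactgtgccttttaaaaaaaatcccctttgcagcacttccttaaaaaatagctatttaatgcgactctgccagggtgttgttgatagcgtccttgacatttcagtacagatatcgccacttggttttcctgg
Cd5l: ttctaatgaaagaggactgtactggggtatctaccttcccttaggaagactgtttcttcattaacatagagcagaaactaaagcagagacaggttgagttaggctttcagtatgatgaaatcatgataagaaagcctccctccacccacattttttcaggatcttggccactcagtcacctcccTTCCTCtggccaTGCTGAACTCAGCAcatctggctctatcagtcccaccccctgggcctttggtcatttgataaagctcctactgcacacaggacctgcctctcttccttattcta
C1qb: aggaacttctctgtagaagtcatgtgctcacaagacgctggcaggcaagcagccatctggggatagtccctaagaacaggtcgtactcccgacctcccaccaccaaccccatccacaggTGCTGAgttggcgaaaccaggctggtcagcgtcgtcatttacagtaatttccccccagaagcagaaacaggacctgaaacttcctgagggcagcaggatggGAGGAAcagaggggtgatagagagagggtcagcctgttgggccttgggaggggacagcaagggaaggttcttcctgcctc
C1qc: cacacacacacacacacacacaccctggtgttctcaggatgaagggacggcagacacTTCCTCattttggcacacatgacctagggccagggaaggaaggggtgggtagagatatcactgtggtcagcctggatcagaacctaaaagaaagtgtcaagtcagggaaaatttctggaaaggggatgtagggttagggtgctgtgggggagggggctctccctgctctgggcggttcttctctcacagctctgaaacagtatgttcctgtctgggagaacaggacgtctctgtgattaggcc
Cd5l held the full element TGCTGANNTCAGCA, beginning 54 bases before its start site, with a PU.1 core on the opposite strand 66 bases before it. Timd4 held 2 half-sites, both read on the opposite strand, at 150 and 44 bases before the start, and Spic held 1 at 198 bases before it. C1qb held a half-site at 131 and a PU.1 core at 30 bases before the start, while C1qc held a PU.1 core at 193 bases before the start and no half-site. Among the members whose windows are not shown, Mrc1 held 3 PU.1 cores, Axl held 1, and these letters were not found in the window of Cd163. A match describes the letters of a window and was not tested for binding.

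The arrays first showed how strongly the members were read. On the log2 intensity scale, 14 of the 16 probe sets lay above the median of every array, from the 53.8th to the 97.5th percentile. The Timd4 probe set lay above it on the 10 RAS-OFF arrays and below it on the 5 RAS-ON arrays. One Axl probe set (1438621_x_at) was dim on all arrays, at 4.00 to 4.31 in RAS-OFF and 4.07 to 4.52 in RAS-ON, and the other Axl probe set represents the gene below. Each gene is given by its brightest probe set unless another is named, and the ending x_at marks probe sets that may also bind other transcripts.

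Doxycycline-treated leukemias had higher signals of most of these genes. Against the 5 RAS-ON arrays, 8 of the 10 members were higher in RAS-OFF by limma's test at an adjusted p below 0.05, where 20.1% of all genes were higher and 28.7% lower. None of the 10 was lower, also at an unadjusted p below 0.05, at which 9 were higher. The share of all genes at that unadjusted level was not counted. The median change of the members was 0.66 log2 units, beside -0.04 over all genes. By probe set, 12 of 16 were higher and 0 lower, where 19.3% of all probe sets were higher. The array signals come from bulk RNA and were normalized between arrays. A larger number of macrophages, a larger share of them among the cells and more RNA of these genes per cell cannot be told apart. Nor can the loss of NRASG12V be told apart from doxycycline itself or from the hours of treatment, since every RAS-OFF array had all of these.

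**Figure D1:**
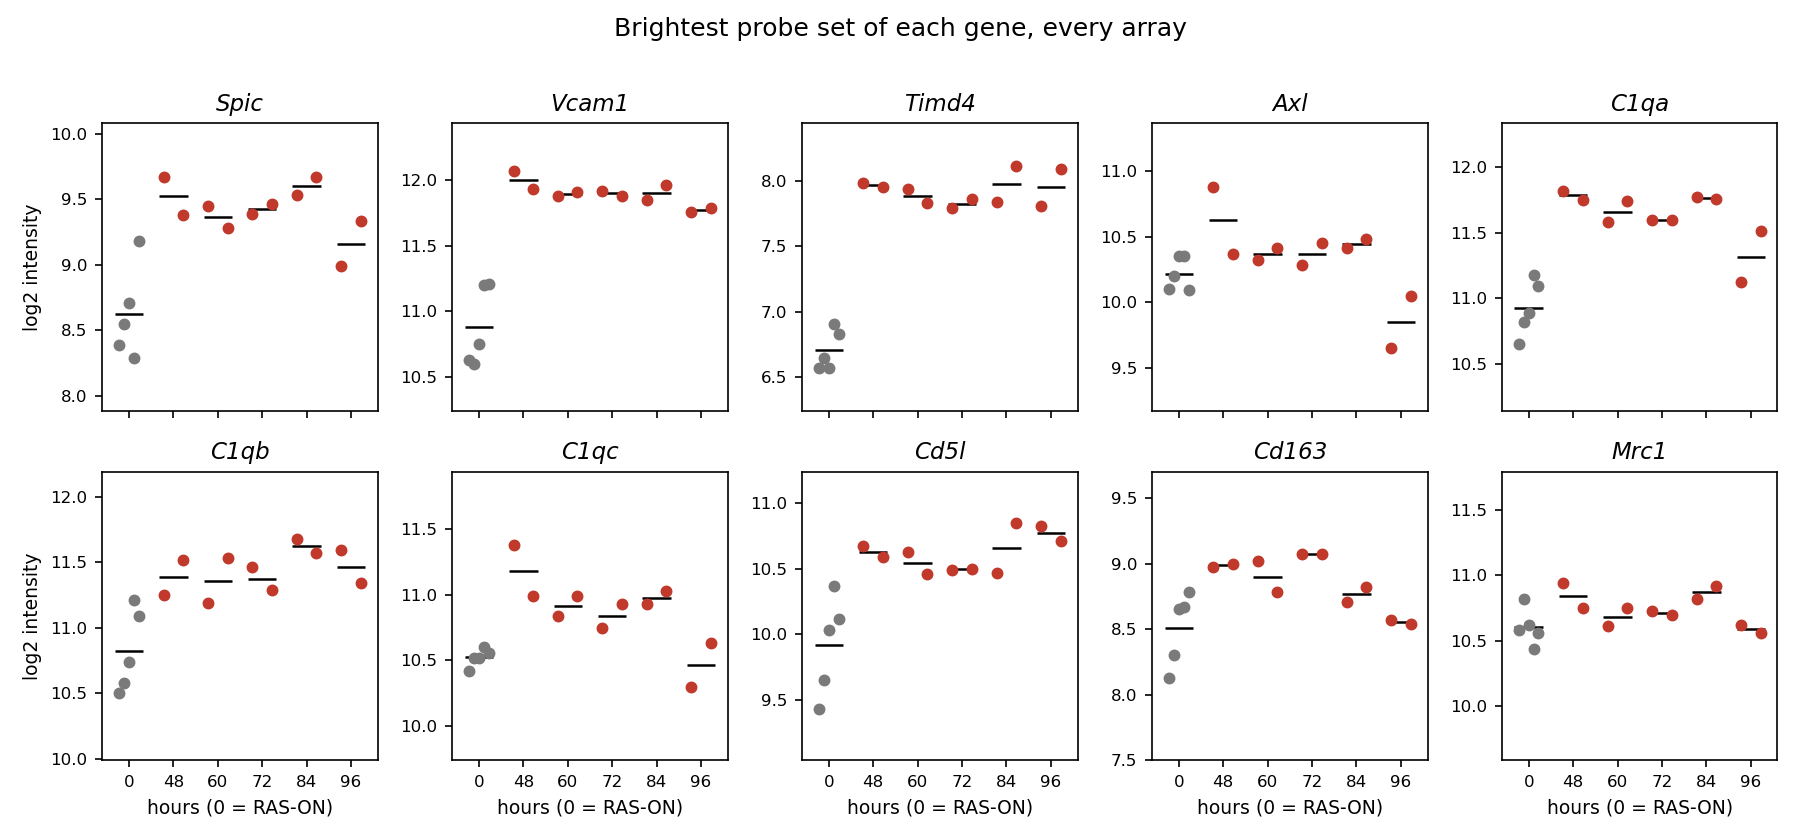
Log2 intensity of the brightest probe set of each member on every array, with hours of doxycycline on the horizontal axis and 0 h the 5 RAS-ON arrays (grey), 2 RAS-OFF arrays at each later time (red), bars at group means, and an equal span on every vertical axis. Timd4, Vcam1 and Cd5l have all 10 RAS-OFF points above the 5 RAS-ON points. The lowest RAS-OFF point lies at 96 h for C1qc and Axl, and also for Spic, Vcam1, C1qa, Cd163 and Mrc1.

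Timd4, which encodes the phosphatidylserine receptor Tim-4 that resident macrophages use to bind dying cells, had the largest change of the 10. Its log2 intensity ran from 7.79 to 8.11 with a median of 7.90 over the 10 RAS-OFF arrays, against 6.57, 6.65, 6.57, 6.91 and 6.83 in RAS-ON. The lowest RAS-OFF array was thus above the highest RAS-ON array. Timd4 rose by 1.21 ± 0.07 log2 units (SE; 2.32-fold, adjusted p = 4.71e-09).

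Vcam1, the adhesion molecule that binds the integrin of Itga4 and Itgb1 on blood cells, had 11.76 to 12.07 with a median of 11.90 in RAS-OFF, against 10.63, 10.60, 10.75, 11.20 and 11.21 in RAS-ON. The groups did not overlap, and the RAS-ON arrays split into a lower trio (replicates 1 to 3) and a higher pair (4 and 5). The rise was 1.02 ± 0.10 log2 units (2.03-fold, adjusted p = 6.91e-07). Its other probe sets gave different sizes, with 0.91 ± 0.19 for 1415989_at (adjusted p = 0.00121) and 0.30 ± 0.14 for 1451314_a_at, which did not pass the test (adjusted p = 0.102).

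Spic, the factor that sets up the red pulp program, had 8.99 to 9.67 with a median of 9.42 in RAS-OFF, against 8.39, 8.55, 8.71, 8.29 and 9.18 in RAS-ON. Overlap came from 1 array of each group, since RAS-ON replicate 5 at 9.18 stood above RAS-OFF 96 h replicate 1 at 8.99. Spic rose by 0.79 ± 0.12 log2 units (1.73-fold, adjusted p = 6.75e-05), and its other probe set (1449134_s_at) rose by 1.18 ± 0.15 (adjusted p = 2.01e-05).

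Cd5l, whose promoter window above holds the full MAF element, had 10.46 to 10.85 with a median of 10.61 in RAS-OFF, against 9.43, 9.65, 10.03, 10.37 and 10.12 in RAS-ON. All RAS-OFF arrays were above all RAS-ON arrays, although the gap at the nearest pair was small. The rise was 0.70 ± 0.12 log2 units (1.63-fold, adjusted p = 0.000264). In all, 3 of the 10 genes (Timd4, Vcam1 and Cd5l) and 4 of the 16 probe sets had no overlap with RAS-OFF on top, as had 9.36% of all genes and 8.09% of all probe sets; the fourth probe set was 1434366_x_at of C1qb.

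The C1q chains all rose, by unequal amounts. C1qa had 11.12 to 11.82 with a median of 11.67 in RAS-OFF, against 10.65, 10.82, 10.89, 11.18 and 11.09 in RAS-ON, and rose by 0.70 ± 0.08 log2 units (1.62-fold, adjusted p = 6.97e-06). Its RAS-OFF arrays all lay above the RAS-ON arrays but for 96 h replicate 1 at 11.12. C1qb had 11.19 to 11.68 with a median of 11.49 in RAS-OFF, against 10.50, 10.58, 10.74, 11.21 and 11.09 in RAS-ON, and rose by 0.62 ± 0.11 (1.53-fold, adjusted p = 0.000364). The other C1qb probe sets rose by 0.44 ± 0.08 (1434366_x_at, adjusted p = 0.000558) and 0.29 ± 0.09 (1417063_at, adjusted p = 0.0211). C1qc had 10.30 to 11.38 with a median of 10.93 in RAS-OFF, against 10.42, 10.52, 10.52, 10.60 and 10.56 in RAS-ON. Its RAS-OFF values spread over about 1 log2 unit around the tight RAS-ON values, and the rise was 0.36 ± 0.07 (1.28-fold, adjusted p = 0.000927).

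The scavenger receptor Cd163 had 8.54 to 9.07 with a median of 8.89 in RAS-OFF, against 8.13, 8.30, 8.65, 8.67 and 8.78 in RAS-ON. The groups overlapped, with 6 of the 10 RAS-OFF arrays above every RAS-ON array, and the rise was 0.35 ± 0.09 log2 units (1.27-fold, adjusted p = 0.00618). The mannose receptor gene Mrc1 had 10.56 to 10.94 with a median of 10.74 in RAS-OFF, against 10.58, 10.82, 10.62, 10.44 and 10.56 in RAS-ON. Its change of 0.13 log2 units (95% confidence interval 0.00 to 0.27) did not pass the test (adjusted p = 0.0906). Axl, a receptor tyrosine kinase that binds dying cells through Gas6, had 9.65 to 10.88 with a median of 10.39 in RAS-OFF, against 10.10, 10.20, 10.35, 10.35 and 10.09 in RAS-ON. The RAS-OFF arrays of Axl lay on both sides of the RAS-ON range, and its change of 0.11 (95% confidence interval -0.08 to 0.30) did not pass (adjusted p = 0.32).

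The size of several rises depended on which RAS-ON arrays were used. RAS-ON replicates 4 and 5 were both above replicates 1 to 3 for 7 of the 10 members, a pattern shown by 24.6% of all genes, with mean differences of 0.55 for Vcam1, 0.54 for Cd5l, 0.54 for C1qb and 0.34 for C1qa. What separates these RAS-ON arrays is not given in the labels. Against replicates 4 and 5 alone the changes were 1.05 for Timd4, 0.69 for Vcam1, 0.68 for Spic, 0.49 for C1qa, 0.38 for Cd5l, 0.30 for C1qc and 0.29 for C1qb, all still past the test. These are the brightest probe sets. Of the others, Vcam1 1451314_a_at was at -0.10 and C1qb 1417063_at at 0.07 against replicates 4 and 5, values that were not tested there. Cd163 was then 0.13 higher and no longer called (adjusted p = 0.186), and Mrc1 was 0.24 higher and called (adjusted p = 0.0179), so the count of members called higher was again 8.

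**Figure D2:**
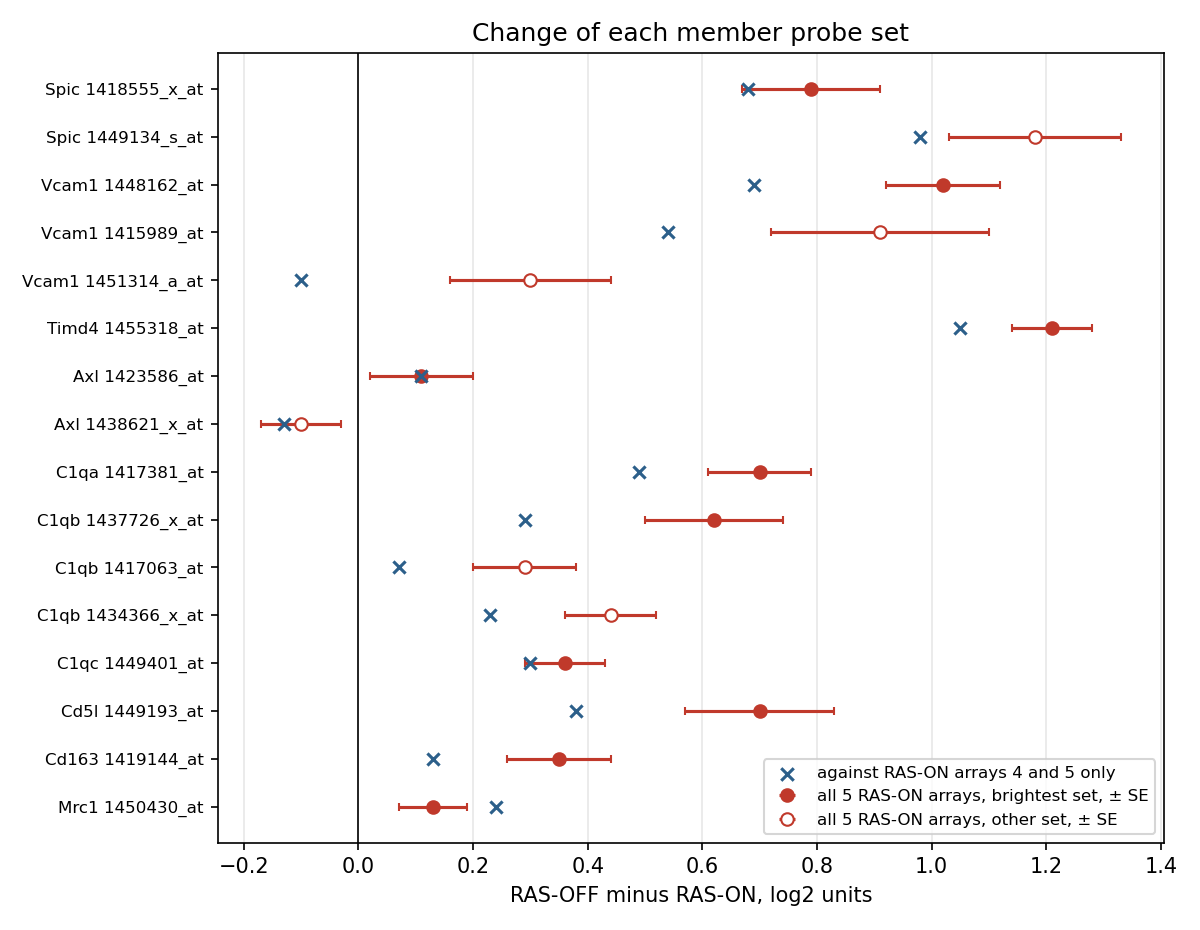
Change of each of the 16 member probe sets, RAS-OFF minus RAS-ON in log2 units, as points with standard errors (filled for the brightest probe set of a gene, open for the others) and, as crosses, the RAS-OFF mean minus the mean of RAS-ON replicates 4 and 5 alone. Timd4, at 1.21, is the rightmost filled point and stays above 1 against replicates 4 and 5, whereas the crosses of Vcam1, Cd5l and C1qb lie further left of their filled points, at 0.69, 0.38 and 0.29.

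Separate contrasts at each time, which share the RAS-ON arrays, showed the rises already in place at 48 h. The members called higher were 9 at 48 h (13.7% of all genes were), 7 at 60 h (11.5%), 8 at 72 h (13.4%), 8 in the 84 h arrays (15%) and 6 by 96 h (16.7%). Timd4 was 1.26, 1.17, 1.12, 1.27 and 1.25 log2 units above RAS-ON at 48, 60, 72, 84 and 96 h, and Vcam1 was 1.12, 1.01, 1.03, 1.03 and 0.90 above it. Neither passed a test for a slope over these times. Cd5l was 0.71, 0.63, 0.58, 0.74 and 0.85 above RAS-ON at these times and C1qb 0.56, 0.54, 0.55, 0.80 and 0.64, each past the test at every time. At 48, 60 and 72 h the calls were kept under 22, 22 and 20 of 25 alternatives for Cd5l and under 20, 19 and 22 for C1qb, whose 96 h call was kept under 21. Against RAS-ON replicates 4 and 5 alone, C1qb lost its calls at 48, 60, 72 and 96 h. Cd5l then lost its calls at 60 and 72 h. C1qb at 60 h was 0.21 there (adjusted p = 0.289). These C1qb values are from an x_at probe set. C1qb 1417063_at passed at 48 and 84 h only. It was at 0.30 at 60 h (adjusted p = 0.167), 0.31 at 72 h (adjusted p = 0.139) and -0.10 at 96 h (adjusted p = 0.627). Spic passed at every time, with 0.90, 0.74, 0.80, 0.97 and 0.54. The 48 and 60 h calls of Spic were kept under 24 of 25 alternatives each. Its 96 h call was kept under 19 of 25 alternatives, and was lost without RAS-ON replicate 1, 2 or 4, without 96 h replicate 2, against RAS-ON replicates 4 and 5 alone and with 3 RAS-OFF arrays left out (adjusted p up to 0.279).

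Other members were near or below their RAS-ON level by 96 h, apart from C1qa, which was still called higher. C1qc was 0.67, 0.40, 0.32 and 0.46 log2 units above RAS-ON at 48, 60, 72 and 84 h, all past the test, and at 96 h its change was -0.06 (adjusted p = 0.732). Axl passed at 48 h only among the first 4 times, with 0.40, 0.15, 0.15 and 0.22, and at 96 h it was the 1 member called lower, by -0.37 (adjusted p = 0.0432; 20.9% of all genes were lower), a call kept under 8 of 25 alternatives. Cd163 passed at 48 and 72 h, with changes of 0.48, 0.39, 0.56, 0.26 and 0.05 over the times. Mrc1, with 0.24, 0.08, 0.11, 0.26 and -0.02, passed at 84 h alone (adjusted p = 0.0417). C1qa passed at every time and had its smallest change, 0.39, at 96 h, after 0.86, 0.74, 0.67 and 0.84. The 96 h call of C1qa was kept under 22 of 25 alternatives. Losses included those without RAS-ON replicate 2 and against RAS-ON replicates 4 and 5 alone.

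A slope over the RAS-OFF times uses no RAS-ON value for its estimate. Per 12 h, 2 members fell, C1qc by -0.14 ± 0.03 log2 units (adjusted p = 0.00665) and Axl by -0.15 ± 0.04 (adjusted p = 0.0137), where 8.75% of all genes fell. None rose at an adjusted p below 0.05, where 5% of all genes did. At an unadjusted p below 0.05 none rose either, and 4 of the 10 had a negative slope. The share of all genes at that unadjusted level was not counted. The slopes of Timd4 at 0.01 ± 0.03, C1qb at 0.04 ± 0.05, Cd5l at 0.04 ± 0.05 and Vcam1 at -0.04 ± 0.04 did not pass. C1qa at -0.08 ± 0.03 (adjusted p = 0.127) and Cd163 at -0.10 ± 0.04 (adjusted p = 0.0994) did not pass either. Nor did C1qb 1417063_at, at -0.12 ± 0.04 (adjusted p = 0.0664).

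Both slopes that passed rested on the first and last times, and 1 of the last arrays stood apart in RNA quality. The 3′ probe set of Gapdh was 1.22 log2 units above its 5′ probe set on RAS-OFF 96 h replicate 1 and 0.10 to 0.35 above it on the other 14 arrays, and for Actb the difference was 0.46 there and -0.07 to 0.14 elsewhere. This array was the lowest of the 10 RAS-OFF arrays for 10 of the 16 member probe sets, where 18.1% of all probe sets had it lowest. Probe sets of 1 gene differed on it. For Vcam1, 1415989_at was -1.50 log2 units from the mean of the other 9 RAS-OFF arrays and 1448162_at was -0.15 from it. For C1qb, 1417063_at was -0.70 from that mean, 1434366_x_at was -0.03 and 1437726_x_at was 0.17. C1qc at -0.65, Axl at -0.75 and C1qa at -0.56, each read by 1 usable probe set, were low on it too, while Cd5l was at 0.23. With the probe sets of a gene averaged, the 96 h change of Vcam1 was 0.36 (adjusted p = 0.177) in place of 0.90, and that of C1qb 0.31 (adjusted p = 0.083) in place of 0.64.

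The other 96 h array, with an ordinary Gapdh difference of 0.18, was also low for some members. Against the mean of the 8 RAS-OFF arrays of 48 to 84 h, RAS-OFF 96 h replicate 2 stood at -0.40 for Axl, -0.39 for Cd163, -0.35 for C1qc and -0.19 for C1qa. It stood at 0.18 for Timd4 and 0.12 for Cd5l. Without replicate 1 the slopes were -0.10 for C1qc (adjusted p = 0.0622) and -0.11 for Axl (adjusted p = 0.119), neither called. The 96 h changes were then 0.11 for C1qc and -0.17 for Axl (adjusted p = 0.61 and 0.517), and 0.58 for C1qa (adjusted p = 0.0125). Leaving out RAS-OFF 48 h replicate 1, the highest array for both genes, gave slopes of -0.10 for each (adjusted p = 0.0821 for C1qc and 0.155 for Axl). The part of RNA quality in these late values was not tested.

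**Figure D3:**
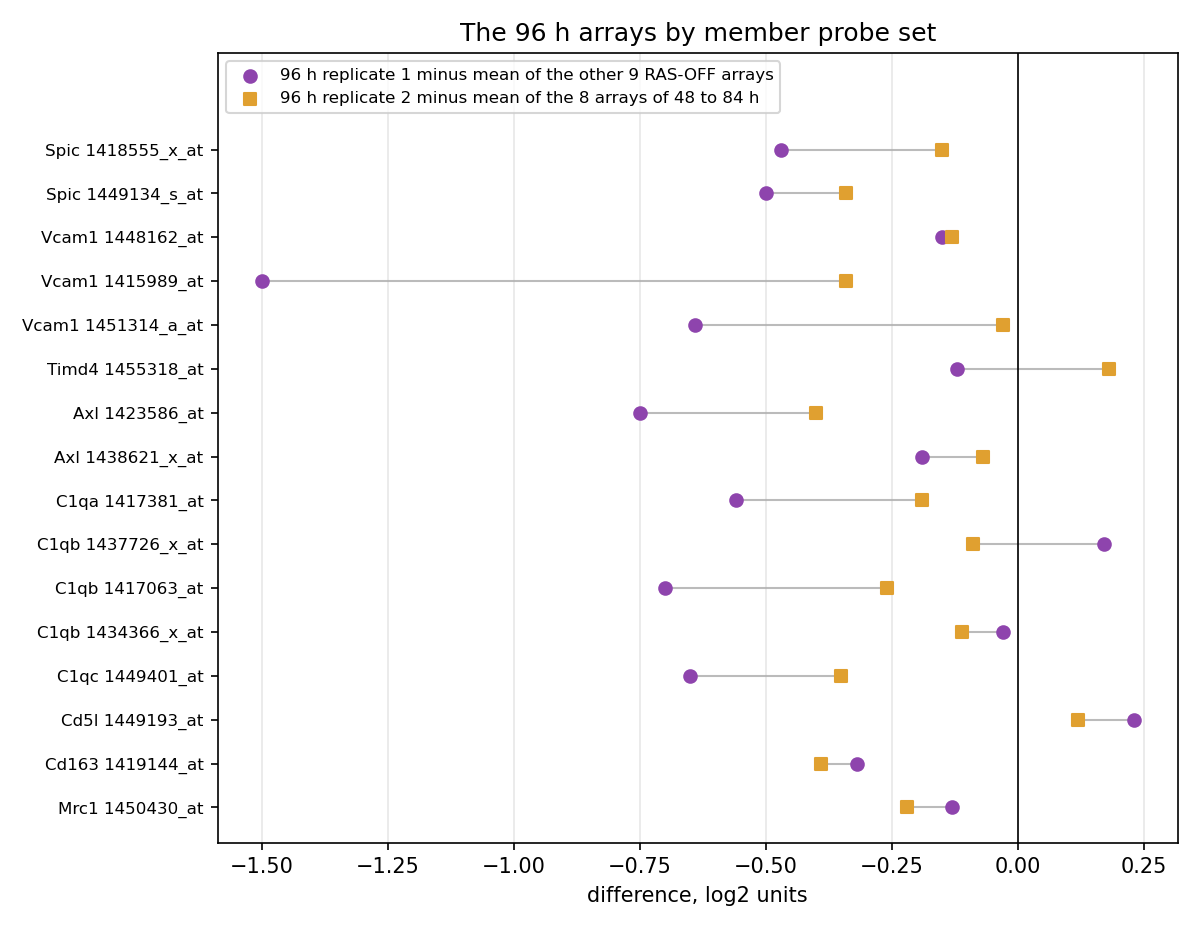
Position of each RAS-OFF 96 h array for the 16 member probe sets, in log2 units, as replicate 1 minus the mean of the other 9 RAS-OFF arrays (circles) and replicate 2 minus the mean of the 8 RAS-OFF arrays of 48 to 84 h (squares), with 0 marking that mean. Vcam1 1415989_at has its circle at -1.50 beside -0.15 for Vcam1 1448162_at, and the C1qb probe sets spread from -0.70 to 0.17.

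Genes with the most similar pattern were found by the root mean square distance between centred log2 profiles over the 15 arrays. The distance takes in the difference between the groups as well as the spread within them. Nearest to Timd4 were Tmem64 (0.109 log2 units), the chemokine gene Ccl5 (0.115) and Gclm (0.124), a subunit of the enzyme that starts glutathione synthesis. Nearest to Vcam1 were the cholesterol exporter gene Abca1 (0.115), the protease inhibitor gene Timp2 (0.118) and Epas1 (0.119), which encodes a hypoxia-inducible factor. C1qa lay nearest to Serpinb6a (0.10), to Fcna (0.122), which encodes the complement lectin ficolin A, and to Gsta3 (0.129). Spic was less closely matched, with Il18r1 (0.184), Crebl2 (0.189) and Fam241a (0.190), while Cd5l had Zmym5 (0.111), Lcor (0.125) and Fcho2 (0.156). For C1qb the nearest were Zbtb41 (0.138), Ghr (0.144) and Pcf11 (0.147), and for the mean of the C1q chains Pcdh18 (0.10), Lhfp (0.107) and Sema6d (0.112).

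Among the members themselves, the closest profiles were those of Axl and C1qc (0.137), Vcam1 and Timd4 (0.161) and Cd5l and C1qb (0.185). Of the neighbouring C1q genes, C1qa and C1qc were 0.201 apart, C1qa and C1qb 0.221, and C1qb and C1qc 0.333, and on RAS-OFF 96 h replicate 1 the brightest C1qb probe set and C1qc stood above and below the mean of the other 9 RAS-OFF arrays (0.17 and -0.65). The widest gap, 0.580, lay between Timd4 and Axl.

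Iron and haem genes, which carry out the recycling work of red pulp macrophages and are also used by red cell precursors, changed in both directions, more of them up. Of 15 measured, 9 were higher in RAS-OFF, 4 lower and 2 not called, with a median of 0.31 log2 units. The largest rises were those of the haem-degradation enzyme Blvrb at 1.48 ± 0.07, the transferrin receptor Tfrc at 1.35 ± 0.08, the iron exporter Slc40a1 at 1.03 ± 0.06 and the iron transporter Slc11a2 at 1.00 ± 0.05 (adjusted p = 4.04e-09 or less). Hmox1, the haem oxygenase that opens the haem ring, went the other way, with 10.34 to 11.07 in RAS-OFF and 10.90 to 11.91 in RAS-ON, and fell by -0.49 ± 0.13 (adjusted p = 0.00541). Bach1, the haem-sensing repressor of Spic and Hmox1, rose by 0.23 ± 0.08 (adjusted p = 0.0254), but was at 0.00 against RAS-ON replicates 4 and 5 alone (adjusted p = 0.984) and at -0.02 with its probe sets averaged.

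Genes shared by macrophages in general changed in both directions. Of 23 measured, 6 were higher, 8 lower and 9 not called, with a median of -0.09. The scavenger receptor gene Msr1 fell by -1.60 ± 0.11, Spi1, which encodes PU.1, by -1.11 ± 0.13, the lysosomal protein gene Cd68 by -1.03 ± 0.08 and the endotoxin co-receptor gene Cd14 by -0.97 ± 0.06 (adjusted p = 3.65e-06 or less). These genes are also expressed by monocytes and myeloid leukemia cells. Lyve1, which tissue macrophages and lymphatic vessels share, rose by 0.99 ± 0.11 (adjusted p = 3.5e-06), or by 0.60 with its probe sets averaged (adjusted p = 7.53e-06). Adgre1, which encodes a surface antigen of most mouse macrophages, fell by -0.25 ± 0.09 (adjusted p = 0.037), but was at 0.02 against RAS-ON replicates 4 and 5 alone (adjusted p = 0.887). Nr1h3, which encodes a lipid-sensing receptor of spleen macrophages, had a change of 0.12 ± 0.06 (adjusted p = 0.104).

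Other genes linked to the uptake of dying cells, ligands and relatives of Timd4 and Axl among them, changed in both directions. Of 26 genes, 9 were higher, 11 lower and 6 not called, with a median of -0.06. Gas6, the ligand of Axl and Mertk, had 9.21 to 9.68 in RAS-OFF and 8.37 to 8.81 in RAS-ON, and rose by 0.83 ± 0.06 (adjusted p = 7.2e-08). Within the Axl family of receptors, Mertk rose by 0.58 ± 0.11 (adjusted p = 0.000505) and Tyro3 fell by -0.38 ± 0.07 (adjusted p = 0.000246). The second ligand gene, Pros1, had a change of 0.08 ± 0.07 (adjusted p = 0.366). Largest in the list were the fall of the lipid receptor gene Trem2 by -1.97 ± 0.07 and the rise of Stab2, a scavenger receptor of sinus endothelium, by 1.18 ± 0.10. Stab1 fell by -0.81 ± 0.16, and Havcr2, a Tim-family relative of Timd4, rose by 0.77 ± 0.10 (adjusted p = 0.000736 or less for these). With the probe sets of a gene averaged, the changes were smaller for Gas6 at 0.48, Tyro3 at -0.16 and Trem2 at -1.07, all still past the test. Against RAS-ON replicates 4 and 5 alone, those of Mertk at 0.38, Stab1 at -0.33 and Havcr2 at 0.50 were smaller and also past it.

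Of 22 complement genes other than C1q, 11 were higher, 5 lower and 6 not called, with a median of 0.13. The proteases that bind C1q rose, C1ra by 0.40 ± 0.07 (adjusted p = 0.000192) and C1s1 by 0.69 ± 0.08 (adjusted p = 6.53e-06). The largest rises were those of the cell-surface inhibitors Cd59a at 1.92 ± 0.07 and Cd55 at 1.73 ± 0.08, and the largest falls those of properdin, Cfp, at -1.34 ± 0.06 (-0.62 with its probe sets averaged), the receptor gene C3ar1 at -1.21 ± 0.11 and Cd93 at -1.07 ± 0.08 (adjusted p = 3.86e-07 or less). Integrins and adhesion molecules related to Vcam1 were split, with 4 higher, 4 lower and 1 not called of 9. Itga4, whose product pairs with that of Itgb1 to bind Vcam1, rose by 0.57 ± 0.06 (adjusted p = 8.97e-07), Itgb1 by 0.37 ± 0.09 (adjusted p = 0.00315, and 0.264 against RAS-ON replicates 4 and 5 alone), and Icam4, an adhesion molecule of red cell precursors, by 1.65 ± 0.05. Itgb7, which can also pair with Itga4, fell by -0.93 ± 0.09 and Icam2 by -0.72 ± 0.08 (adjusted p = 2.42e-06 or less for these last 3). With the probe sets of a gene averaged, the change of Itga4 was 0.26 (adjusted p = 0.00376) and that of Itgb1 was 0.09 (adjusted p = 0.21). Scavenger-domain genes and lectin receptor genes, relatives of Cd163, Cd5l and Mrc1 among them, showed 5 higher, 4 lower and 5 not called of 14. Ly75 rose by 0.64 ± 0.10, Lgals3bp by 0.58 ± 0.08 and Mrc2 by 0.55 ± 0.07 (0.18 with its probe sets averaged). Cd5 fell by -0.55 ± 0.08 (adjusted p = 7.47e-05 or less for these genes).

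Markers of other cells moved in the same comparison as the members. All 13 measured erythroid genes were higher, with a median of 1.59, and their summed intensity was 93413 to 121649 in RAS-OFF and 38309 to 48434 in RAS-ON; Epb42 and Car1 rose by 2.43 ± 0.11 and 2.39 ± 0.10. Of 12 endothelial and stromal genes, 10 were higher and 1 lower, with a median of 0.39 and sums of 14293 to 20048 in RAS-OFF and 12530 to 12972 in RAS-ON, and Cxcl12 rose by 1.58 ± 0.07 (0.95 with its probe sets averaged) while Pecam1 fell by -0.87 ± 0.08. Endothelium and stroma can also express Vcam1. Granule genes and other markers of early myeloid and leukemic cells were lower in 7 of 7, with a median of -2.01. Their sums were 14533 to 20603 in RAS-OFF and 47340 to 63313 in RAS-ON, and Ctsg fell by -2.66 ± 0.10. The genes named here passed at an adjusted p of 2.55e-07 or less. The part of these markers in the members' changes was not tested.

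Myeloid lists went different ways. Of 8 monocyte genes 5 were lower and 3 not called (median -0.75), with sums of 25781 to 33275 in RAS-OFF and 35559 to 41030 in RAS-ON and F13a1 falling by -2.21 ± 0.08. Of 9 neutrophil genes 6 were higher and 3 not called (median 0.55), with sums of 112933 to 141815 in RAS-OFF and 96867 to 112361 in RAS-ON and Mmp8 rising by 2.16 ± 0.08. Dendritic cell genes were higher in 5 of 9 and not called in 4 (1 higher against RAS-ON replicates 1 to 3 alone; median 0.22, sums of 16066 to 24470 in RAS-OFF and 16021 to 18999 in RAS-ON), and Flt3 rose by 0.73 ± 0.12. Of 8 lymphocyte genes 4 were higher and 2 lower (median 0.16, sums of 2209 to 3210 in RAS-OFF and 1921 to 2378 in RAS-ON), in hosts poor in these cells, with Cd3d rising by 1.25 ± 0.10 and Cd79b falling by -1.41 ± 0.12. The genes named from these lists passed at an adjusted p of 0.000112 or less.

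**Figure D4:**
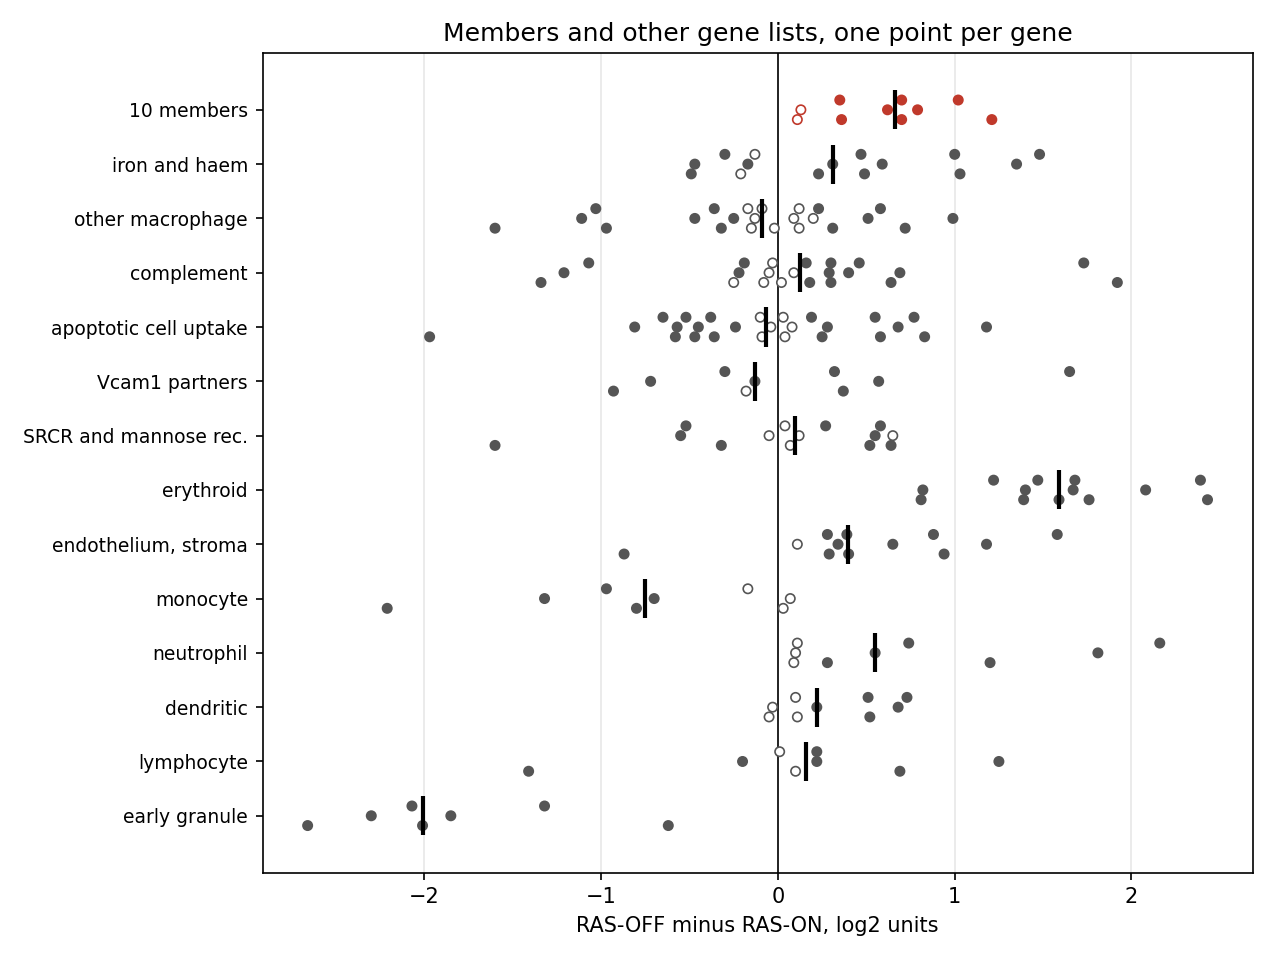
Change of every measured gene of the 10 members (red, top row) and of the other gene lists (grey), RAS-OFF minus RAS-ON in log2 units, filled where called at an adjusted p below 0.05 and open otherwise, with black bars at list medians. The members lie at 0.11 to 1.21 around a median of 0.66, between the erythroid genes (median 1.59) and the other macrophage genes (median -0.09). The row named early granule, not all of whose genes encode granule proteins, lies furthest left (median -2.01).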

How the data were processed

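Biotin-labelled amplified RNA was read on Affymetrix mouse arrays. Per the submitters' processing notes, RMA produced the values that the authors deposited, which are 1 intensity for each probe set on each array. RMA corrects background, normalizes between arrays and summarises probes, so a change of most genes in 1 direction would not show. The RMA version is not given in the sources used here. Deposited intensities are linear, with array medians of 149.99 to 156.53, and log2 was taken here.

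Of 45101 probe sets, 34945 had 1 gene symbol in the platform annotation (932 had several, 9160 none, 64 were controls), and 1 probe set, the one with the highest mean over all arrays, stood for each of 18193 genes. No filter on dim genes was used. Limma 3.58.1 in R 4.3.3 fitted 1 mean per group over all 15 arrays, with default eBayes and two-sided tests, adjusted by Benjamini-Hochberg over 18193 genes (34945 probe sets where a probe set is named). RAS-ON was subtracted from the average of the 5 RAS-OFF group means and from each of them, and a straight line through the RAS-OFF means gave the slope per 12 h. Errors of changes are standard errors of the fit. Whether replicates are separate animals is not in the labels, and p-values then measure only a spread between samples that may be technical. No scan date is given in the labels. The number of arrays limits the precision.

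Pairs of RAS-ON arrays differed with an SD of 0.166 to 0.219 log2 units among replicates 1 to 3, 0.169 for replicates 4 and 5, and 0.236 to 0.302 from one of these sets to the other. The members, gene lists, alternatives and motifs were chosen with earlier results of these data known. Named by rule were all members, up to 5 called genes of each list with the largest change, 15 genes whatever their values (3 of them are not analysed here), and the 3 nearest genes to each member with an SD over 0.3. The text gives a part of these. The code was tested on simulated data. Alternatives were other probe set rules, a filter on the dimmest 40% of genes, centring, other variance models, the replicate number as a block, and arrays or times left out.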

Additional observations from a re-analysis of the deposited data

Results flagged for a closer look

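Of 32 groups of member values tested for 1 array far from the rest (chance flags about 1 in 20), 4 had such an array, each time RAS-OFF 96 h replicate 1 at the low end, where the Gapdh 3′ to 5′ difference was 1.22. It had a log2 intensity of 9.01 for Vcam1 1415989_at (10.20 to 10.89 on the other 9 RAS-OFF arrays), 8.11 for Vcam1 1451314_a_at (8.59 to 8.94), 10.63 for C1qb 1417063_at (11.10 to 11.57) and 11.12 for C1qa 1417381_at (11.51 to 11.82). The brightest probe sets of Vcam1 and C1qb, at 11.76 and 11.59, were not among these. Levels differed between the RAS-OFF times for Axl, with a slope of -0.15 log2 units per 12 h, and for C1qc, with a slope of -0.14, and neither passed without that array.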

How the results depend on the processing

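Timd4, Vcam1, Spic, Cd5l, C1qa, C1qb and C1qc were called higher in RAS-OFF under all 31 alternatives for that comparison; Cd163 was under 30, Mrc1 under 4 and Axl under 1 (0.23, adjusted p = 0.0376, with 96 h left out). The count of members higher was 8 to 9 when 1 array was left out, and tested by probe set 6761 sets were higher and 9096 lower, more because more features were tested. The replicate numbers did not clearly pair the arrays, with 5 of 30 pairs of deviations correlated above 0.1 (-0.24 to 0.22). These pairs are not all distinct. The deviations of 2 arrays mirror each other, so each pair of RAS-OFF times gave the same value at both replicate numbers. With the replicate block 8 members were again higher, with 3299 genes higher and 4671 lower. Replicate numbers 3 to 5 occur only in RAS-ON, so the block fits these arrays exactly. The changes with the block thus rest on RAS-ON replicates 1 and 2 alone and leave out replicates 4 and 5. For the other values that moved, the cause was not tested. Leaving out 1 array in turn, the members called higher numbered 5 to 9 at 48 h, 3 to 8 at 60 h, 4 to 8 at 72 h, 5 to 8 at 84 h and 4 to 6 at 96 h, and lower 0 to 1 at 96 h. The members called with a negative slope then numbered 0 to 3. Without 3 RAS-OFF arrays (48, 84 and 96 h replicate 1), 4 were higher at 48 h and 3 at 96 h. Against RAS-ON replicates 4 and 5 alone, 4 were higher at 60 h, 5 at 72 h and 3 at 96 h. The count lower at 96 h was 0 by probe set, with median centring, array weights, the replicate block, RAS-ON replicates 1 to 3 or 4 and 5 alone, or 3 arrays out. Negative slopes numbered 1 with probe sets averaged, 4 with the replicate block, and 0 without 48 h, without 96 h or with 3 arrays out. Signs turned for values near 0. At 96 h, Mrc1 was 0.03 with median centring, 0.04 without RAS-ON replicate 2, 0.02 without 96 h replicate 2 and 0.09 against RAS-ON replicates 4 and 5. Cd163 there was -0.05 to 0.12 with 1 array left out (-0.05 without RAS-ON replicate 1, 0.00 without replicate 2) and -0.17 against replicates 4 and 5. C1qc there was -0.23 to 0.11 with 1 array left out (0.11 without 96 h replicate 1) and 0.11 with 3 arrays out. At 60 h, Mrc1 was -0.02 with the replicate block. Slopes turned to -0.02 for C1qb with probe sets averaged and -0.01 with 3 arrays out, to -0.01, -0.02 and 0.00 for Timd4 without 84 h replicate 2, 96 h replicate 2 or 96 h, to 0.03 and 0.02 for Spic without 96 h or with 3 arrays out, and to 0.01 for Mrc1 without 96 h. Among other genes, the RAS-OFF change of Bach1 was -0.02 with probe sets averaged, of Pros1 -0.06 with the replicate block, and of Adgre1 0.02 against RAS-ON replicates 4 and 5; Adgre1 lost its call under 15 further alternatives and Hmox1 with the replicate block (-0.20, adjusted p = 0.125). Calls at single times kept under the fewest of 25 alternatives were those of Axl at 96 h (8) and 48 h (18), Mrc1 at 84 h (13) and C1qc at 72 h (15). Counts of other lists moved by over 1.5 times, or to or from 0, in 23 cases. An example is 3 complement genes lower without RAS-ON replicate 1 in place of 5.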
